A study of Mus musculus with 9 samples.

Results

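The genes followed here are 10 genes of bile acid synthesis and transport, listed by their known roles with earlier results of these data in view. They stand among 19938 measured genes, and each was read by the 1 probe set found for it. Bile acids are detergent-like sterols that hepatocytes make from cholesterol, and their synthesis, secretion into bile and return from the gut make up the enterohepatic circulation. In the classic route Cyp7a1 starts the conversion, Hsd3b7, Cyp8b1 and Akr1d1 modify the sterol ring, and Cyp27a1 oxidises the side chain. Slc27a5 and Baat activate the acid and join it to taurine. Slc10a1 then takes bile acids up from blood, and Abcb11 and Abcb4 move bile acids and phospholipid across the canalicular membrane into bile.

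The samples were liver cells sorted as CD45-Ter119-Cxcl12-DsRed+ stroma from C57BL/6 mice of genotype Cxcl12DsRed/+, at the embryonic stage E15.5 and at postnatal days 5 (P5) and 10 (P10), with 3 arrays per stage. Every sample, at each stage, carried 1 DsRed allele of Cxcl12, the chemokine gene of the sort, so no group lacks the reporter. The design text calls the arrays independent replicates but does not say whether animals were pooled, so p-values measure only the spread between these arrays, which may be technical. Values are log2 signals of robust multi-array averaging (RMA), a difference of 1 is a 2-fold change, and a gene was called where the adjusted p of limma was under 0.05.

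The sorted cells carried hepatocyte RNA as well as stromal RNA on every array. Alb, the albumin gene, lay between 13.03 and 13.22 on the 9 arrays, above their percentile 99 of 12.05 to 12.42. The fetal albumin relative Afp had means of 13.32 at E15.5, 12.88 at P5, then 10.74 at P10. Among 11 measured markers of hepatic stellate cells, 10 were lower at P5 and 10 at P10 than at E15.5. Of all genes, 17.7% and 18.6% were lower. The stellate genes Lrat and Pdgfra still had 7.34 to 8.50 and 6.90 to 8.49 on the postnatal arrays, against 10.46 to 10.99 and 10.79 to 10.86 at E15.5. Cxcl12 differed by -0.81 ± 0.17 (SE) at P5 against E15.5 and had a mean of 10.13 at P10. In such bulk samples, more cells of a type and more RNA per cell cannot be told apart.

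**Figure D1:**
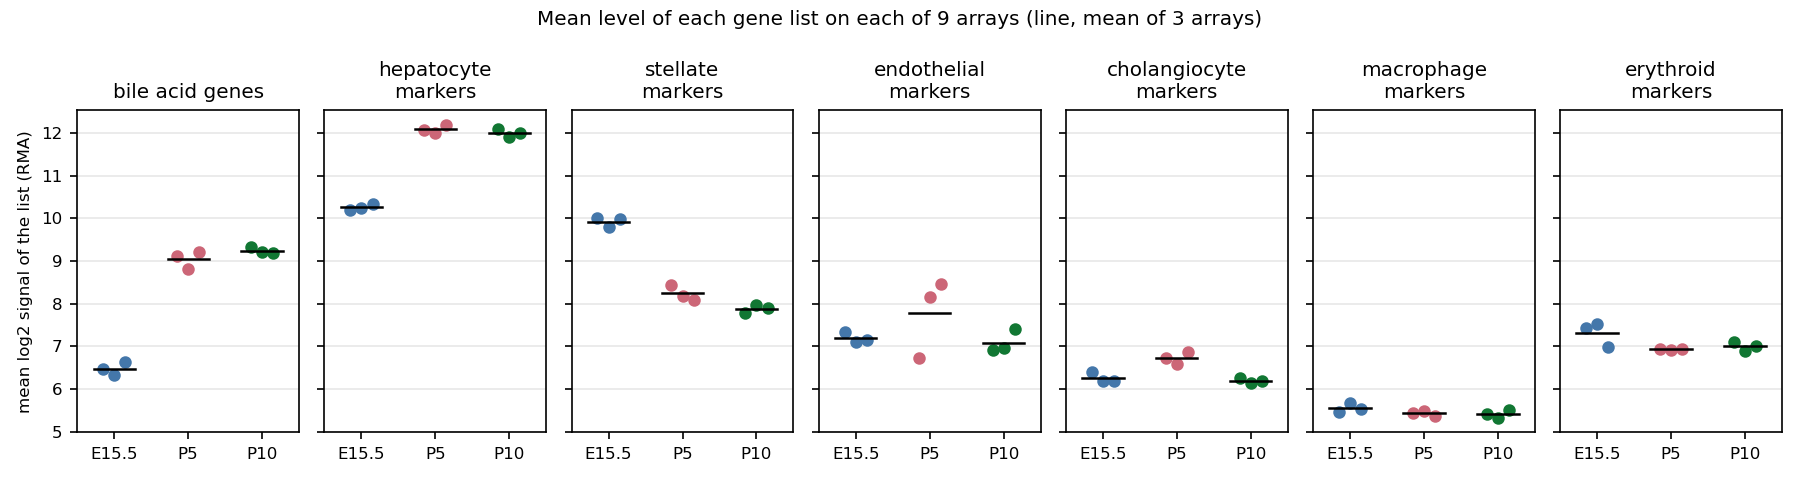
Mean log2 signal (vertical axis, RMA) of the 10 bile acid genes and of 6 lists of cell type markers, by stage, with a point per array and a line at the mean of 3 arrays. The bile acid genes lie between 8.81 and 9.33 on the postnatal arrays and between 6.34 and 6.62 on the E15.5 arrays, the hepatocyte markers are also higher after birth, the stellate markers are lower, and the endothelial markers are high on P5 arrays 2 and 3.

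All 10 bile acid genes were higher at P5 than at E15.5, and all 10 were higher at P10 than at E15.5. For each of the 10, the 3 arrays of either postnatal stage lay wholly above the 3 E15.5 arrays. Of all genes, 17.9% were called higher and 17.7% lower at P5, and 20.1% higher and 18.6% lower at P10. The arrays lay wholly above E15.5 for 24.1% of all genes at P5 and 27.9% at P10. Centring each array on the median of all genes moved the P10 calls to 6085 higher and 3191 lower, beside 3998 and 3718, with the same 10 bile acid genes called. The median difference of the 10 genes was 2.06 at P5 and 2.30 at P10, beside 0.03 and 0.02 over all genes. The rises ran from 1.18 to 5.47 at P5 and from 0.78 to 6.00 at P10, and both comparisons share the E15.5 arrays. A rise of at least 4-fold was seen in 6 of the 10 genes at P5, where 2.51% of all genes rose that far, and in 6 at P10, where 3.12% did.

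**Figure D2:**
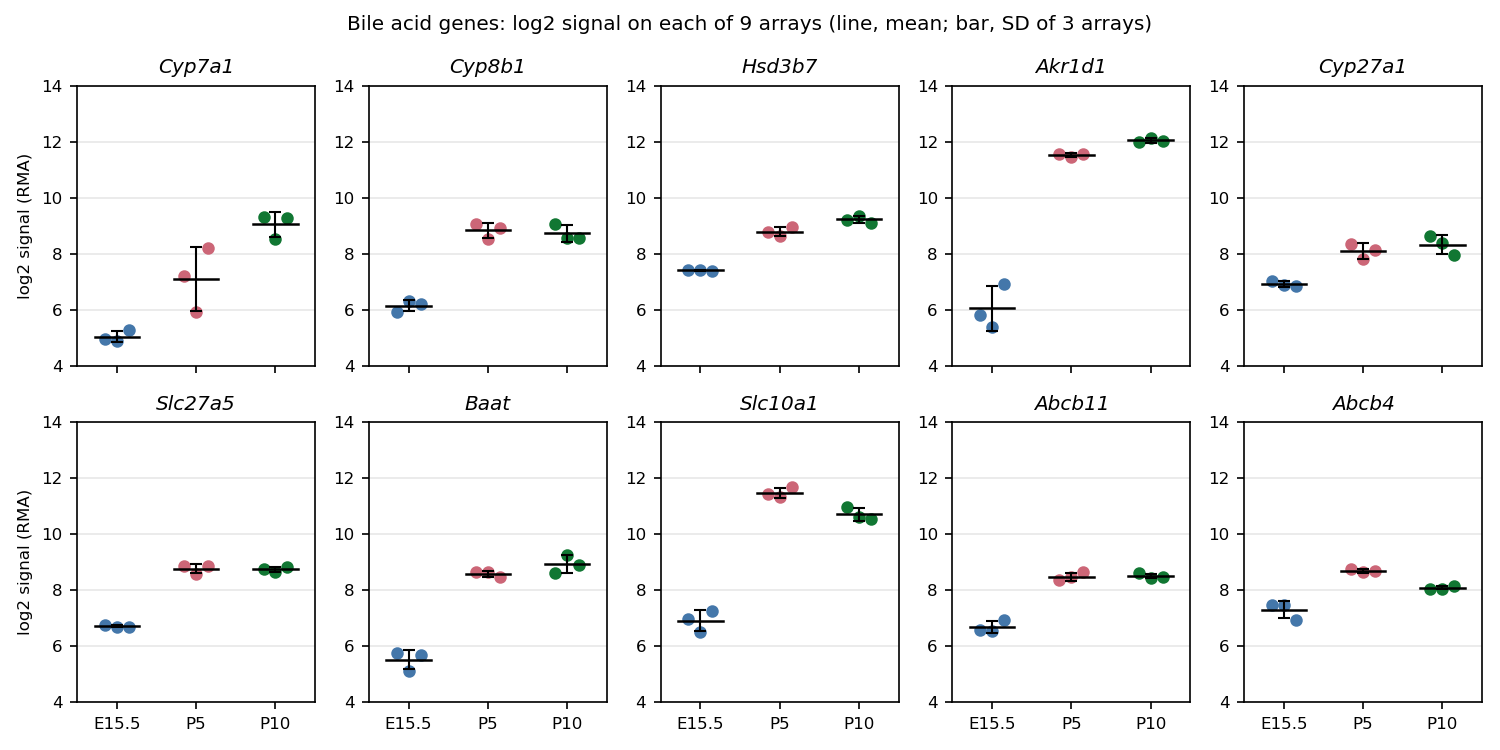
Log2 signal (vertical axis, RMA) of the 10 bile acid genes on each array at E15.5, P5 and P10, with a point per array, a line at the mean and a bar of 1 SD over 3 arrays. Every postnatal point lies above every E15.5 point of the same gene, Cyp7a1 is spread widest at P5, and the P10 points of Slc10a1 and Abcb4 lie below their P5 points.

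Cyp7a1, the rate-limiting enzyme of the classic route, was higher at both postnatal stages than at E15.5. Its difference between P10 and P5 did not pass (1.94 ± 0.50, limma adjusted p = 0.0671). Its log2 signal was 4.98, 4.91 and 5.29 at E15.5, 7.21, 5.93 and 8.21 at P5, and 9.34, 8.54 and 9.30 at P10. The 3 stages did not overlap, but the P5 arrays were spread over more than 2 log2 units. The SD was 0.204 at E15.5, 1.14 at P5, then 0.451 at P10 (n = 3 each). Cyp7a1 rose 4.16-fold at P5 against E15.5 (difference 2.06 ± 0.50, SE; limma adjusted p = 0.0123) and 16.0-fold at P10 against E15.5 (95% interval of the log2 difference 2.85 to 5.15, adjusted p = 0.000264). All 3 E15.5 values lay under percentile 30 of their arrays, which was 5.68 to 5.70. With all values raised to a floor at percentile 30, the P5 difference was 1.43 and did not pass (limma adjusted p = 0.112), and the P10 difference was 3.37 and passed (adjusted p = 0.00388). Leaving out 1 array at a time gave P5 differences of 1.51 (without P5 array 3) to 2.65 (without P5 array 2), each with an adjusted p under the threshold.

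Cyp8b1 encodes the sterol hydroxylase that directs synthesis to cholic acid. It had 5.94, 6.33 and 6.23 at E15.5, 9.06, 8.55 and 8.92 at P5, and 9.07, 8.57 and 8.57 at P10. Both postnatal stages lay well above E15.5 and overlapped each other. The rise was 6.41-fold at P5 (2.68 ± 0.18, limma adjusted p = 1.01e-05) and 5.96-fold at P10 (2.57 ± 0.18), both against E15.5, with no further difference between P10 and P5 beyond the spread (-0.11 ± 0.18, 95% interval -0.53 to 0.32).

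The promoters of Cyp8b1, Abcb11 and Akr1d1 are printed because they hold matches to motifs of nuclear receptors or liver factors near the start. They are the 250 bases before the annotated start, 5′ to 3′ along the gene (RefSeq, GRCm38.p6). Capitals mark every match to the motifs searched on both strands.
Cyp8b1 (chr9:121916306-121916555, minus strand): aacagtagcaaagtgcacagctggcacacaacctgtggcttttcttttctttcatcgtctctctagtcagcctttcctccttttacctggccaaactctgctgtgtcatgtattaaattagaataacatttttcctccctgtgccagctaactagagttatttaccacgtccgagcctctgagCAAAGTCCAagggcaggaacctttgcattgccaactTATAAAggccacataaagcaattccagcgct
Abcb11 (chr2:69342617-69342866, minus strand): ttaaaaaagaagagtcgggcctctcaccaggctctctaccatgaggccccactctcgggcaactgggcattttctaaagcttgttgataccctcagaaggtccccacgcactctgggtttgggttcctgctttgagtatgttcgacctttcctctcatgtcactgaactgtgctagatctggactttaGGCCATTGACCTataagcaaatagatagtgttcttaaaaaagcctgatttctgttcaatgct
Akr1d1 (chr6:37529923-37530172, plus strand): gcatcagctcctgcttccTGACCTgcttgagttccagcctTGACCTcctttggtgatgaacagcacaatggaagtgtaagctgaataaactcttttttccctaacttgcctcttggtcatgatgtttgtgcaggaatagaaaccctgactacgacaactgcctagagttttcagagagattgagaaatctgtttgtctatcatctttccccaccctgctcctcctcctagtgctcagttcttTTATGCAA

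In the Cyp8b1 promoter, the HNF4 letters CAAAGTCCA lay at positions -67 to -59 from the start, and a TATAAA box at -31 to -26. The HNF4 letters were found in 0.384% of all 32851 promoters of the table and TATAAA in 12.4%. In the Abcb11 promoter, an inverted repeat of the kind bound by FXR (GGNCA and TGACC with 1 base between) lay at -62 to -52, as in 0.198% of promoters. It overlaps a match to AGGTCA, the core hexamer of nuclear receptor sites, which 4607 of the 32851 promoters hold. The Akr1d1 promoter had this hexamer at -232 to -227 and at -210 to -205, and the letters TTATGNAA of PAR-bZIP factors at -8 to -1, as in 3.07% of promoters. The 7 members matched, all but Cyp7a1, Slc27a5 and Baat, have 8 annotated starts, of which 3 held the hexamer, the other being 1 of Slc10a1 at -87 to -82. Cyp27a1 held the PAR-bZIP letters, as TTATGAAA at -60 to -53. None of the 8 held the NR5A2 letters CAAGGTCA (1.33% of promoters) or the FOXA letters TGTTTAC (3.17%). These motifs were written after the promoters had been read, and a match is a description of letters only.

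Akr1d1, the reductase that sets the bent ring shape of bile acids, had the largest rise of the 10 genes in both comparisons against E15.5. Its values were 5.84, 5.40 and 6.94 at E15.5, 11.58, 11.46 and 11.56 at P5, and 11.99, 12.16 and 12.02 at P10. E15.5 array 3 was more than 1 unit above the other 2, and still far below every postnatal array. Akr1d1 rose 44.5-fold at P5 (5.47 ± 0.33, limma adjusted p = 4.39e-06) and 63.9-fold at P10 (6.00 ± 0.33, adjusted p = 1.75e-06), and ranked 19 by rise at P10 among all genes. Of its E15.5 values, 1 lay under percentile 30 of its array, and with a floor at percentile 30 the differences were 5.38 and 5.9. The P10 arrays lay wholly above the P5 arrays, but the difference of 0.52 ± 0.33 did not pass (adjusted p = 0.488, 95% interval -0.23 to 1.27). In a fit of the 2 postnatal stages alone, which leaves out the spread between the E15.5 arrays, it was 0.52 ± 0.069 and passed (limma adjusted p = 0.0195).

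Hsd3b7, the dehydrogenase that acts just after Cyp7a1, had 7.42, 7.44 and 7.41 at E15.5, 8.79, 8.65 and 8.96 at P5, and 9.23, 9.37 and 9.12 at P10. The E15.5 arrays were nearly equal (SD 0.0138) and the 3 stages did not overlap. It rose 2.60-fold at P5 (1.38 ± 0.091) and 3.53-fold at P10 (1.82 ± 0.091), both against E15.5. It was the only one of the 10 called higher at P10 than at P5 (0.44 ± 0.091, 1.36-fold, limma adjusted p = 0.0303).

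Cyp27a1, the mitochondrial hydroxylase of the sterol side chain and first enzyme of the alternative route, had 7.04, 6.91 and 6.85 at E15.5, 8.38, 7.81 and 8.15 at P5, and 8.65, 8.39 and 7.97 at P10. Its rise at P5 was the smallest of the 10, at 2.27-fold (1.18 ± 0.19, limma adjusted p = 0.00131), and at P10 it was 2.65-fold (1.41 ± 0.19). The postnatal stages overlapped.

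The conjugating enzymes rose by different amounts. Slc27a5, the ligase that activates bile acids as CoA esters, had 6.75, 6.70 and 6.69 at E15.5, 8.87, 8.59 and 8.87 at P5, and 8.76, 8.65 and 8.82 at P10. It had the smallest adjusted p of the 10 at P5 (2.06 ± 0.087, 4.17-fold, limma adjusted p = 6.76e-07), and the postnatal stages overlapped (-0.03 ± 0.087, 95% interval -0.23 to 0.17). Baat, which transfers the activated acid to taurine, had 5.76, 5.12 and 5.68 at E15.5, 8.65, 8.66 and 8.47 at P5, and 8.62, 9.25 and 8.91 at P10. Baat rose 8.42-fold at P5 (3.07 ± 0.20) and 10.6-fold at P10 (3.41 ± 0.20), and 2 of its E15.5 values lay under percentile 30 of their arrays.

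Slc10a1, which encodes NTCP, the sodium-dependent uptake carrier of the blood-facing membrane, had 6.99, 6.51 and 7.26 at E15.5, 11.44, 11.32 and 11.68 at P5, and 10.98, 10.62 and 10.55 at P10. It was highest at P5, and no 2 stages overlapped. The rise was 23.6-fold at P5 (4.56 ± 0.20, limma adjusted p = 7.80e-07) and 13.9-fold at P10 (3.80 ± 0.20, adjusted p = 1.38e-06). The difference of P10 against P5 was -0.76 ± 0.20 and did not pass (limma adjusted p = 0.0680, 95% interval -1.22 to -0.31).

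Abcb11, the bile salt export pump, had 6.57, 6.55 and 6.94 at E15.5, 8.36, 8.46 and 8.65 at P5, and 8.60, 8.46 and 8.49 at P10. It rose 3.49-fold at P5 (1.80 ± 0.12) and 3.55-fold at P10 (1.83 ± 0.12), with the postnatal stages 0.03 ± 0.12 apart (95% interval -0.25 to 0.30). Abcb4, the floppase that supplies phosphatidylcholine to bile, had 7.47, 7.49 and 6.95 at E15.5, 8.78, 8.64 and 8.68 at P5, and 8.06, 8.06 and 8.15 at P10. Its P5 arrays were the highest, and no 2 stages overlapped. Abcb4 rose 2.63-fold at P5 (1.40 ± 0.14) and 1.72-fold at P10 (0.78 ± 0.14, limma adjusted p = 0.00177), the smallest rise of the 10 at P10. It was the only one of the 10 called lower at P10 than at P5 (-0.61 ± 0.14, limma adjusted p = 0.0386).

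**Figure D3:**
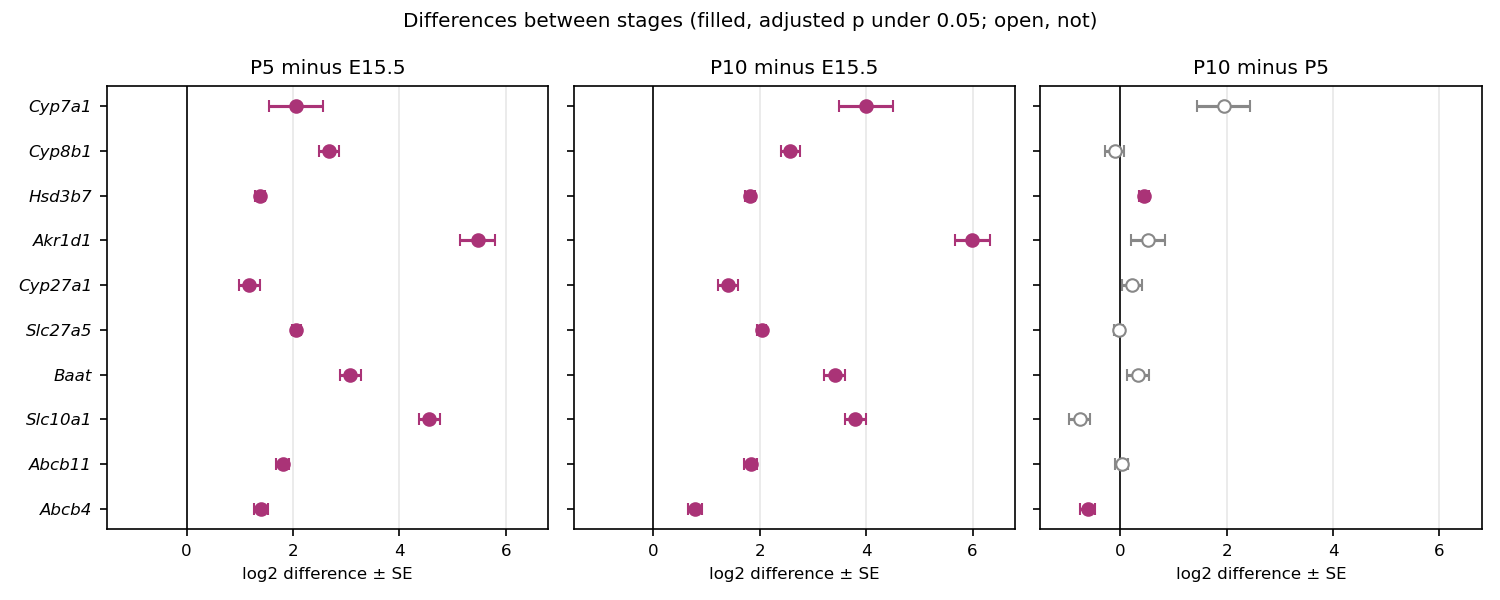
Log2 differences (horizontal axis) of the 10 bile acid genes in panels for P5 against E15.5, for P10 against E15.5 and for P10 against P5, with bars of 1 SE from the model (n = 3 arrays per stage). All points are filled (adjusted p under 0.05) in both comparisons against E15.5, and only Hsd3b7 and Abcb4 are filled between P10 and P5.

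Between P10 and P5, 1 of the 10 genes was called higher and 1 lower, where 2.76% and 2.89% of all genes were called. Median centring moved the calls over all genes to 854 higher and 491 lower, beside 550 and 576. The arrays of P10 lay wholly above those of P5 for 3 genes (Cyp7a1, Hsd3b7 and Akr1d1) and wholly below for 2 (Slc10a1 and Abcb4), where 10.6% and 9.66% of all genes did so. The largest difference was that of Cyp7a1, 1.94 ± 0.50 (a ratio of 3.84), which ranked 12 of all genes but did not pass (limma adjusted p = 0.0671), with the P5 spread given above. Both calls lay close to the threshold. In 9 fits that each left out 1 array, the difference of Hsd3b7 stayed between 0.37 and 0.52, and it was called in 3 (without E15.5 array 3, P5 array 3 or P10 array 3), with adjusted p from 0.0164 to 0.104. That of Abcb4 stayed between -0.65 and -0.57, and it was called in 2 (without E15.5 array 2 or 3), with adjusted p from 0.00338 to 0.122. The difference of Cyp7a1 ran from 1.35 (without P5 array 2) to 2.49 (without P5 array 3). It passed once (without P5 array 3, limma adjusted p = 0.0141), and Slc10a1 once (without E15.5 array 2, adjusted p = 0.0350). When dim genes were filtered out before the fit, both passed, with adjusted p of 0.0383 for Cyp7a1 and 0.0446 for Slc10a1. Hsd3b7 lost its call in a fit of the postnatal stages alone (limma adjusted p = 0.0920) and with trended, robust variances (0.0654), where Cyp7a1 passed (0.0435).

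Within a stage, the arrays did not share the low values evenly. P5 array 2 had the lowest value of its stage for 8 of the 10 genes, the exceptions being Baat and Abcb11. Among the P10 arrays the lowest values were split as 3, 4 and 3 genes. The 10 genes are read from the same RNA, so these counts describe arrays. On P5 arrays 2 and 3 the mean log2 signal of 10 endothelial markers was 8.16 and 8.47, against 6.73 on P5 array 1. Without both of these arrays all 10 genes were still called higher at P5 against E15.5, an alternative chosen after seeing the data. The lone P5 array left there has no spread of its own, and the model gives it that of the other stages. Arrays also differed in the Y-linked gene Eif2s3y. It was at 3.96 to 4.14 on 5 arrays and at 7.94 to 9.24 on the other 4, which were E15.5 array 3, P10 array 1 and P5 arrays 2 and 3, so the signal was uneven across stages. Xist, the RNA of the inactive X chromosome, had 10.16 to 10.64 at E15.5, 5.04 to 8.75 at P5 and 5.09 to 7.98 at P10, lower at both postnatal stages (-3.79 ± 1.01 at P5 and -3.48 ± 1.01 at P10). E15.5 array 3 was high for both genes, with 10.16 for Xist. The part of these differences in the results was not tested.

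The rise was set beside 14 hepatocyte markers on the same arrays. Of these, 11 were called higher and 1 lower at P5, and 8 higher and 2 lower at P10. Over all genes the shares were 17.9% and 17.7% at P5, and 20.1% and 18.6% at P10. The markers had mean signals of 10.20 to 10.34 at E15.5, 11.99 to 12.19 at P5, then 11.91 to 12.09 at P10. The list moved unevenly, with a median difference of 0.72 at P5 and 0.52 at P10, where the mean was 1.82 and 1.74. Tat and Pck1, enzyme genes of amino acid breakdown and gluconeogenesis, rose by 5.98 ± 0.12 and 5.64 ± 0.14 at P5, while Alb differed by 0.06 ± 0.060 and did not pass. For Tat, 2 E15.5 values lay under percentile 30 of their arrays. Alb already lay above percentile 99 of each array at E15.5, and whether signals that high could rise further was not tested. When every array was centred on the mean of these markers, the median of all genes moved to -1.79 at P5 and -1.71 at P10. The mean shift of the list was well above its median, so calls on that scale depend on the markers that rose most. Of all 19938 genes, 411 were called higher and 19008 lower at P5 on that scale, and 557 higher and 18735 lower at P10. There 4 of the 10 bile acid genes were higher at P5 than at E15.5, namely Akr1d1 (3.66), Slc10a1 (2.74), Baat (1.26) and Cyp8b1 (0.86). Hsd3b7 (-0.44), Cyp27a1 (-0.64) and Abcb4 (-0.42) were called lower, and Cyp7a1 (0.24), Slc27a5 (0.24) and Abcb11 (-0.01) did not pass. At P10, Cyp7a1 (2.26) and Slc27a5 (0.29) joined the 4 that were higher, Abcb4 (-0.95) was lower, and Hsd3b7 (0.08), Cyp27a1 (-0.33) and Abcb11 (0.09) did not pass. Differences of all other genes against E15.5 are likewise lower on that scale, by 1.82 at P5 and 1.74 at P10, so smaller rises among the lists that follow turn negative there.

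Other cell types were followed with their own lists. Beside their counts, 17.9% of all genes were higher and 17.7% lower at P5, and 20.1% and 18.6% at P10. In lists this short, counts near those shares say little about the cells. Of 8 cholangiocyte markers, which mark the bile duct lining, 3 were higher and 0 lower at P5, and 2 higher and 1 lower at P10. Their mean signal was 6.18 to 6.39 at E15.5, 6.58 to 6.87 at P5, then 6.14 to 6.27 at P10. The 3 higher at P5 were Sox9 (1.85 ± 0.15), Krt19 (1.51 ± 0.20) and Epcam (0.67 ± 0.12). Between P10 and P5, 0 of the 8 were higher and 2 lower, where 2.76% and 2.89% of all genes were called. Those 2 were Krt19 (-1.71 ± 0.20) and Sox9 (-0.95 ± 0.15). Cftr, a channel gene of that lining, stayed between 4.32 and 4.57, under percentile 30 on all 9 arrays. Of 10 endothelial markers, 2 were higher and 1 lower at P5, and 0 higher and 1 lower at P10. Of 8 macrophage markers, 1 was higher and 1 lower at P5, and 0 higher and 1 lower at P10, with a mean of 5.33 to 5.67 over the 9 arrays. Of 5 erythroid markers, 0 were higher and 2 lower at P5, and 1 higher and 3 lower at P10, with a mean of 6.89 to 7.52. The part of these cells in the results was not tested.

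Other genes of bile acid synthesis and conjugation moved mostly the same way. Beside this list and those that follow, 17.9% of all genes rose and 17.7% fell at P5, and 20.1% and 18.6% at P10. Of 15 measured, 11 rose, 1 fell and 3 did not pass at P5, with a median of 1.60, and 11 rose, 1 fell and 3 did not pass at P10, with a median of 2.06. The peroxisomal steps of side chain shortening were among them. The thiolase gene Scp2 rose by 3.61 ± 0.10 at P5 and 4.10 ± 0.10 at P10, the oxidase gene Acox2 by 2.73 ± 0.12 and 3.49 ± 0.12, and the peroxisomal importer gene Abcd3 by 1.60 ± 0.077 and 2.06 ± 0.077. The steroid oxidoreductase gene Hsd17b6 rose by 5.70 ± 0.16 at P5 and 4.82 ± 0.16 at P10, and Sult2a8, which encodes a sulfotransferase of mouse liver that acts on bile acids, by 5.11 ± 0.16 and 5.40 ± 0.16. For both, all 3 E15.5 values lay under percentile 30. Cyp7b1, the hydroxylase of the alternative route, was the 1 that fell, by 0.60 ± 0.099 at P5 and 0.74 ± 0.099 at P10. It lay under percentile 30 on 3 postnatal arrays, so the size of its fall is measured to a dim signal. Between P10 and P5, Acox2 (0.76 ± 0.12), Abcd3 (0.46 ± 0.077), Scp2 (0.49 ± 0.10) and Amacr (0.56 ± 0.12), a racemase gene, were higher. Slc27a2 (-0.87 ± 0.12), a fatty acid and bile acid CoA ligase gene, and Hsd17b6 (-0.88 ± 0.16) were lower. These were 4 higher and 2 lower of 15, where 2.76% and 2.89% of all genes were called.

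Among 16 other transport genes, 6 rose, 1 fell and 9 did not pass at P5, and 6 rose, 2 fell and 8 did not pass at P10, with medians of 0.24 and 0.23. Slco1a1, Slco2b1 and Slc10a2 lay under percentile 30 on all 9 arrays and Abcc3 on 6, so changes in them could not be judged. They count among the genes that did not pass and enter the medians. The shares of all genes that rose were 17.9% and 20.1%. Slco1b2, which encodes a sodium-independent uptake carrier, had means of 5.05 ± 0.27 at E15.5, 9.97 ± 0.23 at P5, then 9.80 ± 0.17 at P10 (SD, n = 3), and rose by 4.92 ± 0.16 (SE) at P5, with its 3 E15.5 values under percentile 30. The partner genes Abcg5 and Abcg8, whose proteins move cholesterol into bile, rose at P5 (2.83 ± 0.080 and 2.31 ± 0.10) and were higher at P10 than at P5 (1.06 ± 0.080 and 0.82 ± 0.10). For Abcg5, 2 E15.5 values lay under percentile 30 of their arrays. Slc51b encodes the smaller subunit of a bile acid exporter of the blood-facing membrane and rose by 3.08 ± 0.21 at P10, while its partner Slc51a had means of 4.87 at E15.5, 4.79 at P5, then 4.79 at P10 and did not pass. Slc51a lay under percentile 30 on all 9 arrays, so a change in it could not be judged. Fabp1, a fatty acid binding protein gene, rose by 1.43 ± 0.056 at P5 and 1.34 ± 0.056 at P10. Slco1a4, another uptake carrier gene, was higher at P5 than at E15.5 (0.30 ± 0.087, limma adjusted p = 0.0245) and at P10 than at P5 (1.12 ± 0.087, adjusted p = 0.000669). Its E15.5 and P5 values all lay under percentile 30 of their arrays, so both differences start from a dim signal. Abcg2, an efflux pump gene, fell by 1.65 ± 0.10 at P5 and 2.01 ± 0.10 at P10. Ephx1, an epoxide hydrolase gene, differed by -1.16 ± 0.15 at P10 against E15.5 and by -0.84 ± 0.15 at P10 against P5, and was lower in both. Abcc2, the canalicular conjugate pump gene, had means of 8.67 at E15.5, 9.11 at P5, then 8.93 at P10 and did not pass in any comparison.

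Genes for transcription factors and receptors that act on bile acid genes were followed next. Of 18 regulators, 13 rose, 1 fell and 4 did not pass at P5 (median 2.05), and 13 rose, 2 fell and 3 did not pass at P10 (median 2.29). Over all genes, 17.9% and 20.1% rose. Nr1h4 encodes FXR, the bile acid receptor, and had means of 10.30 ± 0.31 at E15.5, 10.42 ± 0.24 at P5, then 10.69 ± 0.051 at P10 (SD, n = 3). Its differences did not pass in any of the 3 comparisons, at 0.13 ± 0.16 (SE) for P5 and 0.40 ± 0.16 for P10, both against E15.5. Nr0b2 encodes SHP, a repressor of Cyp7a1 transcription that FXR is known to induce, and had means of 5.58 ± 0.028 at E15.5, 9.97 ± 0.21 at P5, then 10.61 ± 0.17 at P10 (SD, n = 3). All 3 E15.5 values lay under percentile 30 of their arrays, so its fold is measured from a dim signal. Nr0b2 rose 21.1-fold at P5 (4.40 ± 0.12, limma adjusted p = 7.99e-08) and was higher still at P10 than at P5 (0.63 ± 0.12, adjusted p = 0.0215).

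Hnf4a, a master factor of hepatocyte genes, rose 5.45-fold at P5 (2.45 ± 0.20) and 5.65-fold at P10, and is also among the 14 hepatocyte markers. Ppara, a fatty acid sensor gene (3.46 ± 0.10), Nr1i3, a xenobiotic receptor gene (3.63 ± 0.16), and Cebpa, a factor of mature hepatocytes (2.15 ± 0.066), also rose at P5. Rxra, Foxa2 and Ppara were higher at P10 than at P5, by 0.41 ± 0.080, 0.42 ± 0.089 and 0.48 ± 0.10. With Nr0b2 they were the 4 called of 18, where 2.76% of all genes were called higher. Fgfr4 and Klb encode the hepatocyte receptor and coreceptor of a gut hormone that lowers bile acid synthesis. Fgfr4 had means of 6.69 at E15.5, 6.89 at P5, then 6.82 at P10 and did not pass, and Klb was lower at P10 (-0.46 ± 0.16, limma adjusted p = 0.0482) with overlapping arrays. Gpbar1, a bile acid receptor gene of the cell surface found mainly in non-parenchymal liver cells, fell by 0.88 ± 0.094 at P5 and 1.03 ± 0.094 at P10.

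**Figure D4:**
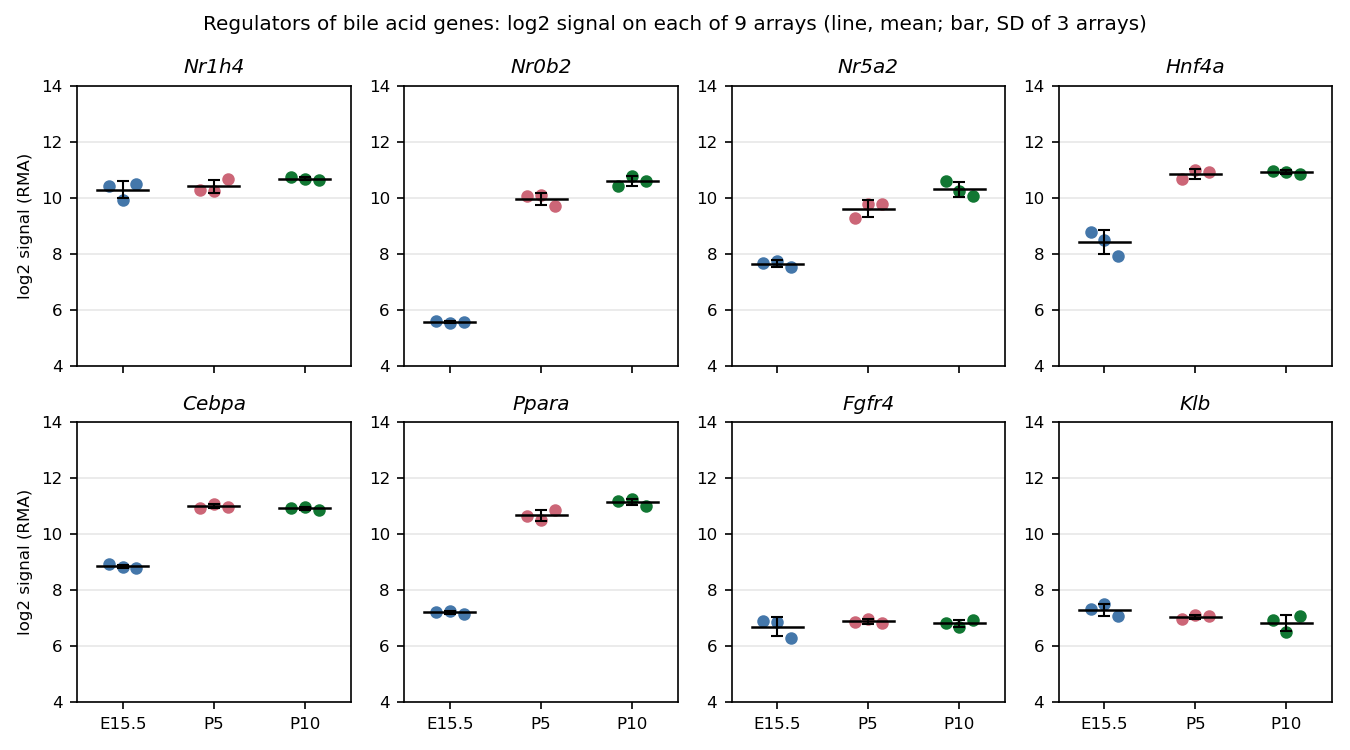
Log2 signal (vertical axis, RMA) of 8 regulator genes on each array at E15.5, P5 and P10, with a point per array, a line at the mean and a bar of 1 SD over 3 arrays. Nr0b2 lies between 9.73 and 10.78 on the postnatal arrays and between 5.55 and 5.60 at E15.5, while Nr1h4 lies between 9.94 and 10.74 on all 9 arrays.

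Genes of canalicular polarity and trafficking, which place and hold the transporters at the bile canaliculus, were followed as well. Of 11 measured, 5 rose, 1 fell and 5 did not pass at P5 (median 0.25), and 4 rose, 1 fell and 6 did not pass at P10 (median 0.20). Over all genes, 17.9% rose and 17.7% fell at P5, and 20.1% and 18.6% at P10. Ceacam1, an adhesion gene of the canalicular membrane, rose by 2.34 ± 0.24 at P5, and the motor gene Myo5b by 1.12 ± 0.18. For Ceacam1, 2 E15.5 values lay under percentile 30 of their arrays. The recycling gene Rab11a (0.63 ± 0.086) and the kinase gene Stk11 (0.51 ± 0.077) rose at P5, and Vipas39, a trafficking gene, fell by 0.79 ± 0.17. Rdx, which encodes a linker of membrane and actin, was lower at P10 than at E15.5 by a small difference (-0.33 ± 0.078). Between P10 and P5, limma called 0 of the 11, where 2.76% of all genes were higher and 2.89% lower. Vipas39 came close (0.70 ± 0.17, limma adjusted p = 0.0501).

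**Figure D5:**
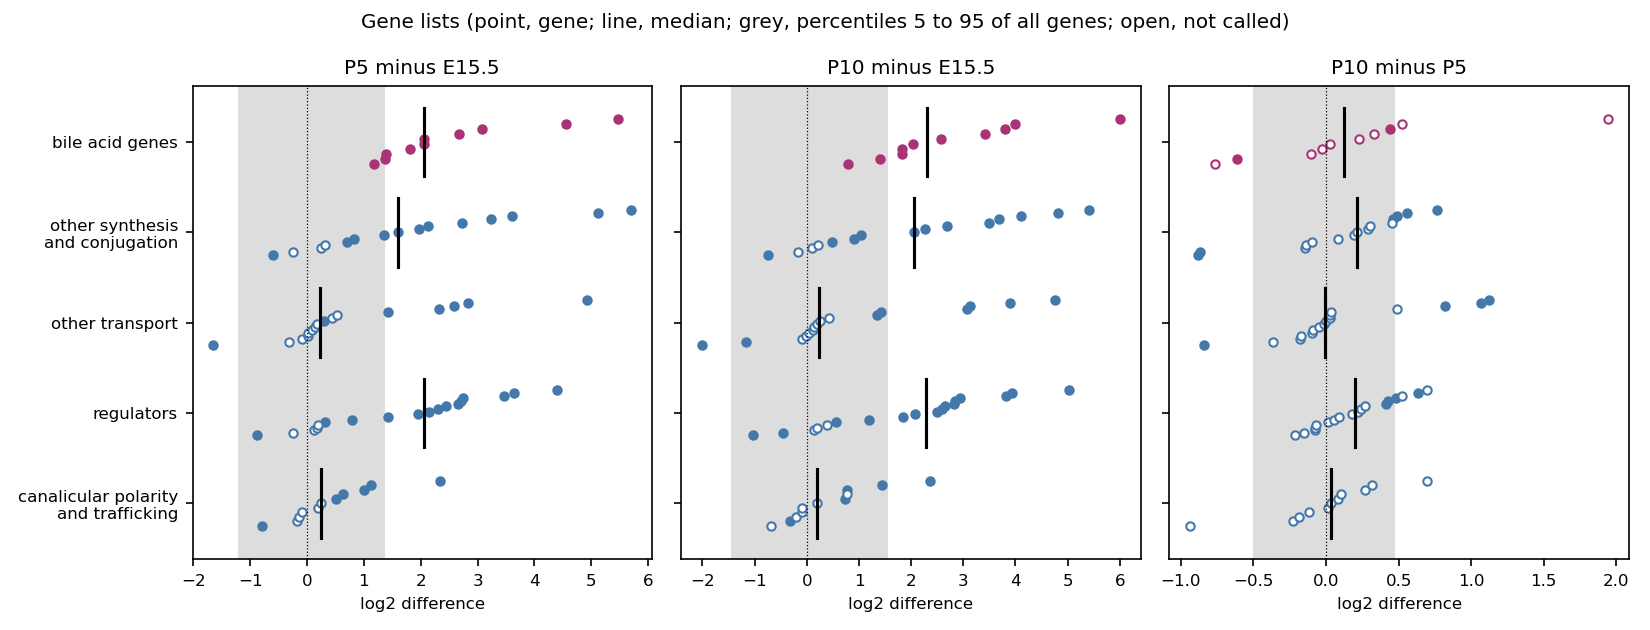
Log2 differences (horizontal axis) of the 10 bile acid genes and of 4 further lists, in panels for P5 against E15.5, for P10 against E15.5 and for P10 against P5, with a point per gene, filled where called, a line at the list median and a grey band for percentiles 5 to 95 of all genes. Medians of the bile acid genes are 2.06, 2.30 and 0.13, and the horizontal scale differs between panels.

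The genes whose course over the 9 arrays lay nearest to each member were found by Euclidean distance between log2 profiles, each centred on its own mean. The nearest to Cyp7a1 was Slc22a27, at a distance of 1.37 (Pearson r 0.966 over 9 arrays), with means of 4.69 at E15.5, 6.94 at P5, then 8.99 at P10. Akr1d1 was nearest to Mat1a (0.414, r 0.999), Slc10a1 to Krt23 (0.948, r 0.988), Baat to Fah (0.630, r 0.992) and Hsd3b7 to Fahd2a (0.194, r 0.997). Slc27a5 was nearest to Cyb5a (0.275, r 0.997), Abcb11 to Det1 (0.298, r 0.996) and Cyp27a1 to Pcyt1a (0.397, r 0.984). Cyp8b1 lay nearest to Slc25a33 (0.530, r 0.992) and Abcb4 to Bco1 (0.458, r 0.974). Among the 10 themselves, the closest pair was Slc27a5 and Abcb11 (0.565), and Cyp7a1 was the most distant from any other (2.88, to Baat). The points are arrays of 3 stages, so these r values include the differences between stages.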

How the data were processed

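RNA of 9 samples was measured on Affymetrix arrays. The deposited values are log2 signals that the authors made by RMA, per the submitters' processing notes. Those notes list Transcriptome Analysis Console 2.0 beside Affymetrix's Expression Console. The method subtracts background, equalises distributions between arrays and combines probes, and it narrows differences of dim genes. Background tests per probe set, the build and batches are not given in the sources used here.

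Of 35556 probe sets, 21789 had 1 gene symbol, 1621 had several and were left out, and 19938 genes were each represented by the probe set with the highest mean. Of the 21789, 21698 matched the RefSeq gene table by Entrez identifier and took its current symbol. Limma 3.58.1 (R 4.3.3) was fitted to all genes and 9 arrays with stage as the only term (6 residual and 2.22 prior degrees of freedom), with Benjamini-Hochberg adjustment over all genes of a contrast. The model was run on simulated data with independent noise, which checks that the code works and does not test the calls given here. Same-numbered arrays were not alike (r of residuals -0.0795 to 0.0687, above 0.1 in 0 of 9 pairs) and were treated as unpaired. The 10 members and the lists, written from general knowledge, were chosen with earlier results of these data known. Beyond the members, the rule named up to 4 called genes per list, contrast and direction with the smallest adjusted p, of which some are given here, and the nearest gene to each member, without predicted, uncharacterised, olfactory or vomeronasal receptor genes. Genes of lists that did not pass were named after their values were seen. A few list entries are not reported here. Motifs were searched in RefSeq promoters of GRCm38.p6. Alternatives covered scaling, centring, a filter and a floor for dim genes, probe set choice, variance moderation, stages fitted, a replicate block and left-out arrays. Only 3 arrays per stage limit the precision. Figures were drawn with matplotlib 3.10.9.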

Additional observations from a re-analysis of the deposited data

How the results depend on the processing

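Against E15.5, 369 of 370 member differences kept their direction and their side of the threshold over 19 settings other than hepatocyte centring. The exception was Cyp7a1 at P5 with a floor at percentile 30 (1.43, limma adjusted p = 0.112). In many of these settings the difference could not change, so only the threshold was in question. These were the mean of probe sets (1 per member), the filter, variance moderation, stages fitted and the replicate block. Leaving out an array of the stage outside a comparison likewise kept its difference. In fits that left out 1 array, 10 genes were called higher and 0 lower in each, at P5 and at P10. With arrays centred on hepatocyte markers, 4 were higher and 3 lower at P5, 6 higher and 1 lower at P10, and 2 higher and 1 lower between P10 and P5, where Abcb4 lost its call (-0.53, adjusted p = 0.0847) and Slc10a1 gained one (-0.68, adjusted p = 0.0291). The differences that changed sign there were those at P5 of Hsd3b7 (-0.44), Cyp27a1 (-0.64), Abcb11 (-0.015) and Abcb4 (-0.42), and at P10 of Cyp27a1 (-0.33) and Abcb4 (-0.95), which follows from subtracting a list that itself rose. Between P10 and P5, leaving out 1 array gave 0 to 2 called higher and 0 to 2 lower. A filter at percentile 30, which tests fewer genes, gave 2 higher and 2 lower, and a floor there 0 and 0. The replicate block gave 1 higher (Cyp7a1, 1.94, adjusted p = 0.0364) and 0 lower, and changed no call against E15.5. Omitting both P5 arrays 2 and 3, chosen after seeing the data, gave 1 higher (Cyp7a1, adjusted p = 0.0424) and 0 lower. Over all genes, calls between P10 and P5 (550 higher, 576 lower) were 289 and 315 with the floor, 337 and 372 with the postnatal stages alone, 817 and 462 with hepatocyte centring, and 250 to 802 higher with 336 to 583 lower when 1 array was left out. Hepatocyte centring gave 411 and 19008 at P5 and 557 and 18735 at P10. The cause of the other changes was not tested. With 3 arrays per stage and no background test, folds of genes that were dim at E15.5, such as Cyp7a1, depend on the floor.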
